A study of Mus musculus with 18 samples.

Results

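Gene expression in cells that stably carry the H3.1K36M histone was set against that in cells that carry wild-type H3.3, to find the genes whose RNA level differs when H3.1 has methionine in place of lysine 36. All genes with a value of at least 10 in 2 or more of the 4 libraries were compared, which left 12955 of the 20325 genes of the table; the second-highest value of the genes just inside this limit was 10.0, and that of the genes just outside it was 9.87. The cells are C3H10T1/2, a multipotent mesenchymal line from mouse embryos that can be driven toward cartilage, bone and fat. RNA was extracted with Trizol and sequenced as TruSeq libraries, in a series of 18 libraries that also holds H3.3K36M cells, siRNA-treated parental cells and tumors. The wild-type group (2 libraries) expressed FLAG-HA-tagged wild-type H3.3, and the mutant group (2 libraries) expressed FLAG-HA-tagged H3.1 with the K36M substitution. The H3.3K36M cells (2 libraries) carried the same tag on mutant H3.3, and all 3 lines were at passage 10 to 15 in a serum-containing medium. Each genotype is 1 line, and the labels do not say that its libraries were separate cultures, so the p-values measure the spread between libraries, which may be technical. No line expressing wild-type H3.1 was analysed here, so the change of histone variant and the substitution cannot be told apart.

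Histone H3 is made as replication-coupled H3.1, which is laid down in S phase, and as H3.3, which is laid down throughout the cell cycle by the HIRA and DAXX-ATRX chaperones. Methylation of lysine 36 is written by the NSD enzymes, ASH1L and SETD2, marks transcribed and intergenic chromatin, and restricts the Polycomb enzyme that methylates lysine 27. A methionine at this position inhibits these methyltransferases and so lowers lysine 36 methylation on the whole H3 pool. H3.3K36M is the characteristic mutation of chondroblastoma, a cartilage tumor, and K36M histones are known to block the differentiation of mesenchymal progenitors.

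Depth was 25322433 and 23343297 estimated reads in the wild-type libraries, 49300531 and 35754318 in the H3.1K36M libraries and 56041798 and 34022137 in the H3.3K36M libraries. Of 13 mesenchymal markers 12 were tested, of which 7 rose and 5 fell, against 41.3% higher and 39.4% lower over all genes tested. Thy1, a surface marker of stromal cells, stood at 116 and 93.8 in wild-type and 767 and 765 in H3.1K36M libraries (log2 2.86), and the growth factor receptor Pdgfra at 6344 and 6576 and 2598 and 2580.4 (log2 -1.32). The summed markers, which include collagen and fibronectin RNA, were 1484390 and 1499020 in wild-type and 938261 and 942733 in H3.1K36M libraries, and all 12 had RNA in both lines. When a library's values were divided by the step worth 1 read, 75.8% and 76.0% of values of 1 to 20 reads came out whole (within 0.01) in the wild-type libraries, against 83.7% in each H3.1K36M library. The H3.3K36M libraries, at 76.7% and 78.1%, were closer to the wild-type libraries. The 6 tumor libraries of the same table, at 84.2% to 86.3%, were closer to the H3.1K36M libraries. The labels give no batch, and a difference in how the H3.1K36M libraries were made or counted cannot be told apart from the genotype, against wild-type and against H3.3K36M cells alike. Lars2, a mitochondrial leucyl-tRNA synthetase gene, took 1.26% and 0.839% of all values in the wild-type libraries and 0.0165% and 0.0140% in the H3.1K36M libraries. Its adjusted p was 0.00705, and 0.0507 without H3.1K36M replicate 2. Macrophage, endothelial and epithelial markers summed to 320 and 330, 3297 and 3283, and 621 and 566 in the wild-type libraries, against 838 and 891, 1254 and 1201, and 1841 and 1968 in the H3.1K36M libraries.

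Of the 12955 genes, 10461 differed between the lines at an adjusted p under 0.05 (80.7%; limma on log2 of the median-normalised estimated count plus 1), with 5353 higher (41.3%) and 5108 lower (39.4%) in H3.1K36M cells. Libraries of a line were close (median standard error of a log2 fold change, 0.06), and 5340 of these genes changed by less than 1.5-fold, so the size of a change is given beside each call. A change of at least 2-fold was found for 3112 genes (24.0%), 1518 higher (11.7%) and 1594 lower (12.3%). Changes of at least 16-fold were found for 233 genes higher and 276 lower. For 11744 genes (90.7%) both libraries of 1 line stood above both of the other. This held for each of the 323 genes that are named by the rule given with the methods and passed the test. That rule favours large changes and requires no overlap of the 12 largest in each direction, so this is no separate result. The median log2 fold change over all genes tested was 0.01. In the lists described next, the limit on low values sets the direction of members that reached it in 1 line alone, and their number is given beside the counts where there were 2 or more in a line.

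**Figure D1:**
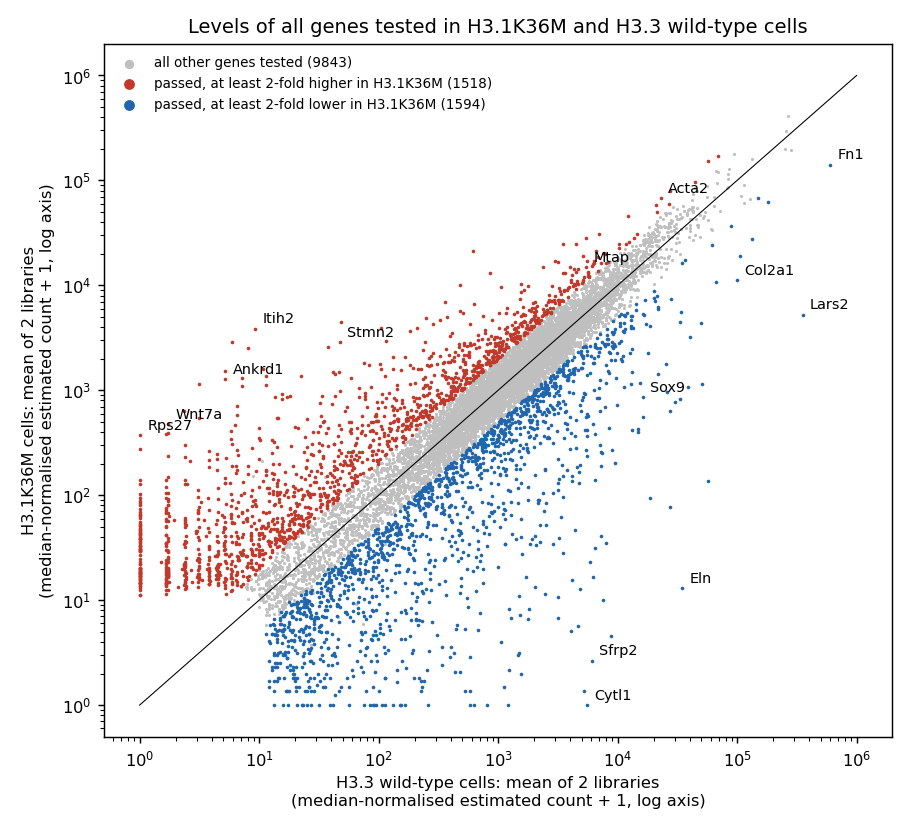
Mean level of each gene tested in the 2 H3.3 wild-type libraries (x axis) and the 2 H3.1K36M libraries (y axis), as median-normalised estimated count + 1 on log axes; the line marks equal levels. The 1518 genes higher by 2-fold or more in H3.1K36M cells (red) and the 1594 at least 2-fold lower (blue) lie on both sides at every level, with Eln, Sfrp2 and Cytl1 far below the line and Itih2, Stmn2 and Wnt7a far above it.

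Cartilage genes were lower in H3.1K36M cells almost throughout. Of the 28 cartilage matrix genes and markers tested 27 fell, 25 of them by at least 2-fold, and none rose, against 39.4% lower over all genes; the median log2 fold change was -4.97. Of the 7 cartilage regulators tested 6 fell and none rose (median -3.07). The limit on low values was reached in wild-type libraries alone by 9 of the 28 and 1 of the 7, so their direction follows from the limit.

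Among the regulators, Sox9, the transcription factor that sets the chondrocyte lineage, stood at 15948 and 16689 in the wild-type libraries and at 901 and 817 in the H3.1K36M libraries (log2 fold change -4.25 ± 0.05 SE, adjusted p = 2.09e-19). Sox6, its partner in activating cartilage matrix genes, stood at 3042 and 3346 and at 7.68 and 3.83 (log2 -8.94 ± 0.22). Mef2c, a factor of chondrocyte hypertrophy and of muscle, fell from 865 and 817 to 68.4 and 56.5 (log2 -3.74). All 3 were low in both H3.1K36M libraries, with no overlap. Trps1, a GATA-type repressor of growth plate cartilage, fell by less (log2 -1.57), as did Runx3 (log2 -0.41), a Runx factor of chondrocyte maturation. Runx2, the partner factor that also drives bone, had 2504 and 2608 and 2002 and 2092 (log2 -0.32).

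Col2a1, the type II collagen that forms cartilage fibrils, stood at 101204 and 98769 in wild-type and 11219.7 and 11233 in H3.1K36M libraries (log2 -3.15 ± 0.03, adjusted p = 1.81e-19). Its partner in those fibrils, Col9a1, stood at 4793 and 4859 and 11.9 and 11.5 (log2 -8.57 ± 0.10). Lect1, which encodes the cartilage growth factor chondromodulin, stood at 4525 and 4863 and 5.58 and 3.83 (log2 -9.70 ± 0.16). The change was thus smaller for Col2a1 than for its fibril partner and for Lect1, both of which came near 0. Acan, the proteoglycan aggrecan, was at 582 and 578 in wild-type libraries and listed at 0 in both H3.1K36M libraries (adjusted p = 6.65e-11). Cytl1, a secreted protein of developing cartilage, was at 5432 and 5628 and likewise listed at 0 in both (adjusted p = 3.55e-17). Ucma, a matrix protein of the growth plate, was at 164 and 163 and listed at 0 in both (adjusted p = 1.67e-10). Each of these 3 genes was thus found in the wild-type line alone of this pair. Hapln1, the link protein that holds aggrecan to hyaluronan, fell from 1504 and 1467 to 1.40 and 2.88. Pth1r, the receptor for parathyroid hormone-related peptide in the growth plate, fell from 1161 and 1122 to 27.9 and 38.3 (log2 -5.08), and Fgfr3, the receptor that restrains growth plate proliferation, from 1939 and 2105 to 157 and 149 (log2 -3.71). The cartilage gene Cilp2 was the exception among those tested (log2 0.20, adjusted p = 0.599).

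The H3.3K36M line, tested in the same fit against H3.1K36M, shared the low levels with differences in degree. Of the 28 matrix genes 20 were lower in H3.1K36M than in H3.3K36M cells and 4 higher, against 31.5% lower and 36.6% higher over all genes tested. Sox9 stood at 2388 and 2273 in the H3.3K36M libraries, above the H3.1K36M libraries (log2 difference -1.44 ± 0.05, adjusted p = 5.60e-13). Col9a1 had 162 and 183 (log2 difference -3.77 ± 0.10) and Lect1 44.5 and 51.3 (log2 difference -3.11 ± 0.16), also above H3.1K36M. Col2a1 went the other way, with 8839.9 and 8265 in H3.3K36M cells, below H3.1K36M (log2 difference 0.39 ± 0.03, adjusted p = 5.06e-08). The adjusted p for Acan, at 2.31 and 0 in H3.3K36M libraries, was 0.136 in this contrast.

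Cells of the parental line given a scramble siRNA were also sequenced, in a table with its own scale that repeats the wild-type libraries. Col2a1 stood there at 75214 and 72957 in wild-type libraries and at 24283, 23157 and 24144 in the 3 control siRNA libraries. Sox9 was at 11852 and 12328 in wild-type and 8054, 7722 and 7605 in control siRNA libraries, and Acan at 433 and 427 and 119.9, 104 and 118. The wild-type line thus held more of these 3 RNAs than the parental cells did. These values carry no test here because the control cells differ in treatment. Hapln1 went the same way, at 1118 and 1084 in wild-type and 30.4, 27.6 and 27.7 in control siRNA libraries. Lect1 stood closer, at 3363 and 3592 and 3208, 3487 and 3435. The stromal marker Thy1 went the other way, at 86.5 and 69.3 and 834, 861 and 770. Hist1h3b, a replication-coupled H3 gene, stood at 3804 and 3811 in wild-type and 0, 2.87 and 0 in control siRNA libraries. Hist1h3a stood at 5025 and 4775 and 4.46, 0 and 0. Whether the control siRNA libraries were made or counted differently was not tested, here or where they are set beside wild-type below.

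**Figure D2:**
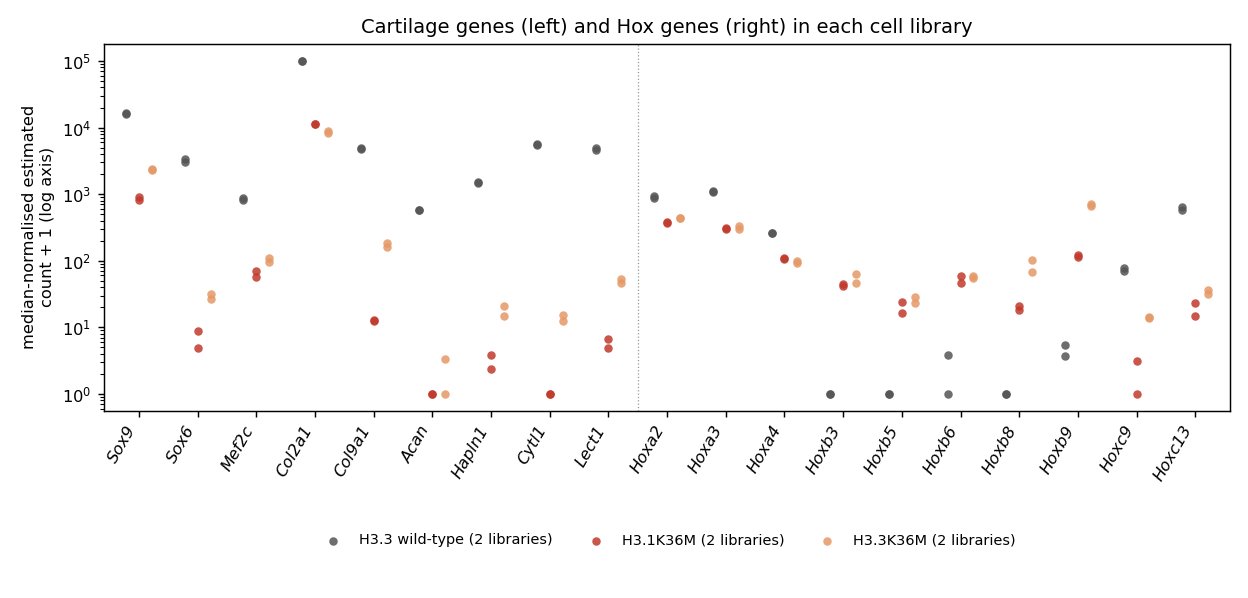
Levels (median-normalised estimated count + 1, log axis) of 9 cartilage genes and 10 Hox genes in each of the 6 cell libraries, 1 point per library, with colours for the 3 lines. The cartilage genes are high in both wild-type libraries and low in both H3.1K36M libraries; HoxB genes are at or near 0 in wild-type and above 0 in both mutant lines, and Hoxc9 and Hoxc13 are lower in both mutant lines.

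The Hox genes, which give cells their position along the body axis, were taken by cluster. In the HoxA cluster 6 of 8 tested genes fell and 1 rose, where 39.4% of all genes tested fell and 41.3% rose. Values were 1090.3 and 1102 against 307 and 302 for Hoxa3 (log2 -1.84 ± 0.07, adjusted p = 9.31e-13). They were 947 and 866 against 379.6 and 374 for Hoxa2 (log2 -1.26). In the HoxB cluster 7 of 10 genes were tested, all higher in H3.1K36M cells, and each reached the limit on low values in H3.1K36M libraries alone, so that its direction follows from the limit. Hoxb9 stood at 2.75 and 4.33 in wild-type and 121 and 112 in H3.1K36M libraries (adjusted p = 1.55e-12), and Hoxb6 at 0 and 2.89 and 45.4 and 57.5. Hoxb3, Hoxb4, Hoxb5, Hoxb7 and Hoxb8 were listed at 0 in both wild-type libraries, and Hoxb3 was at 43.3 and 41.2 in H3.1K36M. These 5 genes with the other 2 form a block of neighbours that had RNA in both H3.1K36M libraries. Hoxb9 was higher still in H3.3K36M cells, at 712 and 655 (log2 difference -2.54 ± 0.19, adjusted p = 1.06e-08), while Hoxb6 was at 54.3 and 57 (adjusted p = 0.842). In the HoxC cluster 3 of 9 genes were tested and 2 fell, 1 of the 3 having reached the limit in wild-type libraries alone; their median log2 fold change was -5.04, and -2.93 with a pseudocount of 10. Hoxc13, the most 5′ gene and a regulator of hair keratins, fell from 643 and 581 to 14 and 22 (log2 -5.04 ± 0.20) and Hoxc9 from 69.5 and 78 to 2.09 and 0. In the table with the parental cells Hoxc13 was at 478 and 429 in wild-type and 0, 6.27 and 1.73 in control siRNA libraries, so the parental cells were low as well. None of the 9 HoxD genes reached the limit.

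Of 52 genes of elastic fibres and matrix glycoproteins 30 fell and 18 rose (median log2 -0.56), and of 25 non-cartilage collagens 17 fell and 6 rose (median -0.68), against 39.4% lower and 41.3% higher over all genes tested. In each of these lists 2 members reached the limit in wild-type libraries alone. Eln, which encodes elastin, stood at 33491 and 35911 in wild-type and 4.88 and 19.2 in H3.1K36M libraries (log2 -11.64 ± 0.72, adjusted p = 0.000630). Prelp, a leucine-rich matrix proteoglycan, stood at 57148 and 57801 and 128 and 143 (log2 -8.72 ± 0.05, adjusted p = 8.64e-23). Fn1, fibronectin, stood at 587417 and 614083 and 140290.0 and 140812 (log2 -2.10). The drop from the wild-type line was thus near complete for elastin and Prelp and partial for fibronectin. On the scale of the parental cells, Eln was at 24890 and 26526 in wild-type and 4547, 4584 and 4196 in control siRNA libraries. Prelp was there at 42472 and 42695 and 9126, 9129 and 9080. Fn1 was at 436563 and 453602 and 329703, 306552 and 309962. Each of these RNAs thus stood lower in the parental cells than in the wild-type line. Among the collagens, Col28a1 fell from 4141 and 4128 to 11.2 and 18.2 (log2 -8.08), Col8a1, of vessel and corneal membranes, from 9517 and 9589 to 199 and 208 (log2 -5.55), and Col6a1, of the pericellular mesh, from 103957 and 107990.0 to 19200.2 and 19029 (log2 -2.47). Col3a1, of loose connective tissue, changed by log2 -1.55. In the opposite direction, Col7a1, which anchors epithelial basement membranes, rose from 264 and 310.4 to 4229.5 and 4381 (log2 3.91) and Lama5, a basement membrane laminin, from 456 and 501 to 9930.1 and 10169 (log2 4.39). Of 22 matrix proteases and inhibitors 12 fell and 8 rose; Serpine2, an inhibitor of thrombin and plasminogen activators, fell from 27369 and 27732 to 636 and 642 (log2 -5.43), and the plasminogen activator Plat rose (log2 2.29).

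Tendon genes fell for 7 of 10 and rose for 3, against 39.4% lower and 41.3% higher over all genes tested, and 1 reached the limit in wild-type libraries alone. Tnmd, the tendon membrane protein tenomodulin, stood at 7346 and 7617 in wild-type libraries, 13.3 and 4.79 in H3.1K36M libraries and 1903 and 2022 in H3.3K36M libraries. Its log2 difference of H3.1K36M from H3.3K36M cells was -7.75 ± 0.52 (adjusted p = 0.00107). Dcn, the small proteoglycan decorin, had 875 and 967, 61.4 and 49.8 and 698 and 828 in the same order (log2 difference -3.76 ± 0.11). Both genes thus had much less RNA in the H3.1K36M line than in the H3.3K36M line. Scx, the transcription factor of tendon progenitors, rose from 180.2 and 187 to 1686 and 1803 (log2 3.24). Of 48 limb and mesenchymal patterning factors 22 rose and 17 fell (median 0.10), near the shares over all genes; 2 reached the limit in H3.1K36M and 3 in wild-type libraries alone. Msx2, a target of BMP signals, rose from 3.71 and 8.46 to 101 and 95.8, and Lhx9, a LIM-domain factor of limb buds, fell from 203 and 247 to 0.698 and 0.

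Fat and bone regulators moved singly. Among adipocyte regulators 9 of 14 fell and 2 rose (median -0.78), against 39.4% and 41.3% over all genes, and 2 reached the limit in wild-type libraries alone. Cebpa, which with Pparg drives fat differentiation, stood at 1715 and 1842 and 115 and 119.9 (log2 -3.91 ± 0.07, adjusted p = 1.18e-16). Pparg itself stood at 962 and 939.9 in wild-type, 969.8 and 972 in H3.1K36M and 373 and 422 in H3.3K36M libraries (log2 0.03 ± 0.06 against wild-type, adjusted p = 0.673). H3.1K36M cells exceeded H3.3K36M cells by log2 1.29 ± 0.06 (adjusted p = 1.01e-10). Dlk1, an imprinted inhibitor of adipogenesis, fell from 478 and 476 to 2.09 and 0 and was at 131 and 120.5 in H3.3K36M cells (log2 difference -6.17 ± 0.48). Of 23 adipocyte lipid genes 12 fell and 9 rose, with 2 that reached the limit in wild-type and 1 in H3.1K36M libraries alone. G0s2, an inhibitor of fat breakdown, fell from 4041 and 4045 to 3.49 and 4.79. Angptl4, a secreted inhibitor of lipoprotein lipase, rose from 72.1 and 79.4 to 861 and 921. Among osteoblast genes 11 of 20 fell and 8 rose. Enpp1, which makes the mineralisation inhibitor pyrophosphate, fell from 1109 and 1172 to 56.5 and 59.4 (log2 -4.27). Phospho1, a phosphatase that starts mineralisation, rose from 228 and 223 to 1572 and 1622 (log2 2.82). Tnfrsf11b, the decoy receptor osteoprotegerin, was at 5665 and 5461 in wild-type, 2348 and 2407 in H3.1K36M and 161 and 169 in H3.3K36M libraries (log2 difference 3.84 ± 0.05, adjusted p = 1.16e-17), so that the H3.1K36M line lay between the other lines.

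**Figure D3:**
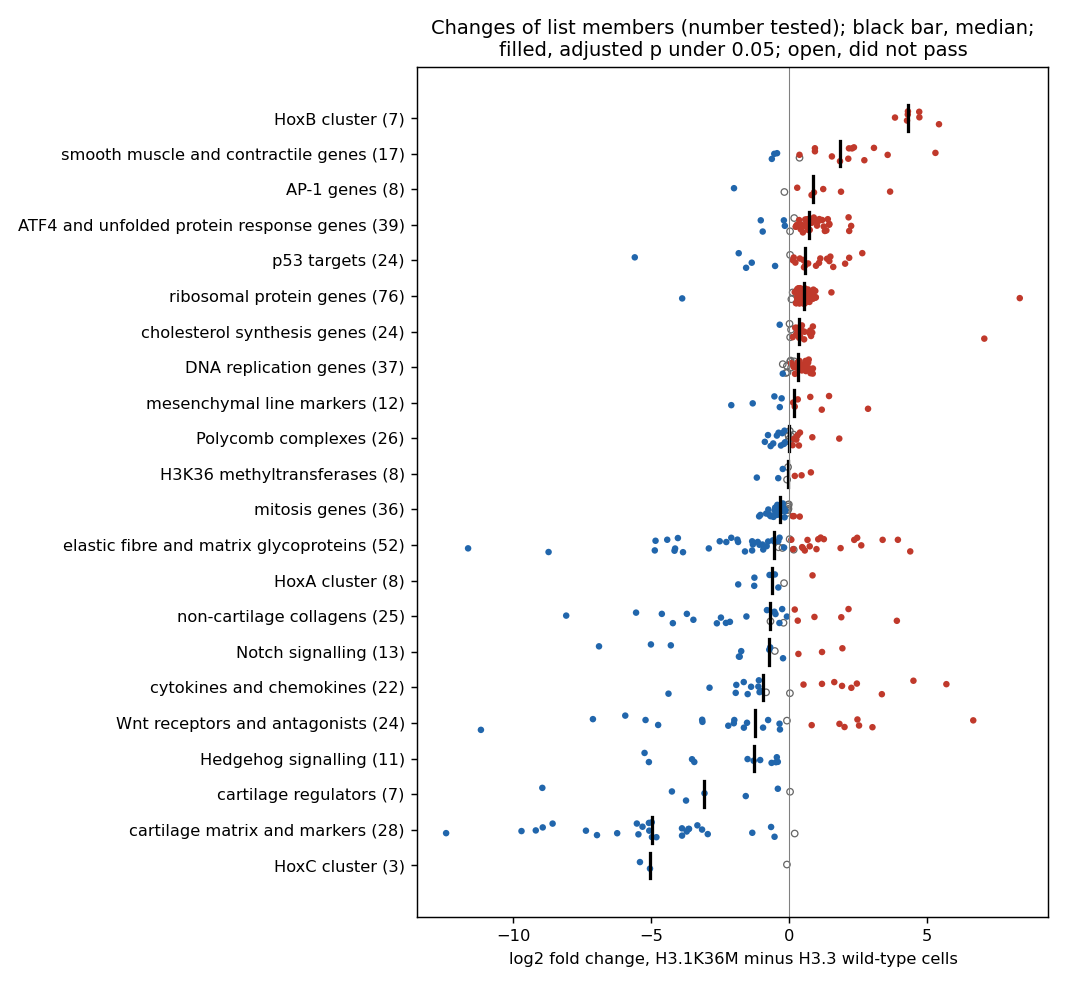
Log2 fold changes (H3.1K36M minus H3.3 wild-type cells, x axis) of the members of 22 gene lists (y axis, number of genes tested in parentheses). Each point is a gene, filled where its adjusted p was under 0.05 and open where it was not, and the black bar is the list's median, which runs from -5.04 for the 3 HoxC genes and -4.97 for cartilage matrix genes (-2.93 and -3.80 with a pseudocount of 10) to 1.85 for contractile genes and 4.31 for the HoxB genes, which reached the limit in H3.1K36M libraries alone.

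Signalling genes of mesenchymal development were lower in several families. All 11 Hedgehog pathway genes tested fell (median log2 -1.29), 7 of them by at least 2-fold, against 39.4% lower and 12.3% at least 2-fold lower over all genes; 1 reached the limit in wild-type libraries alone. Of the co-receptors that bind the ligand, Boc stood at 7171 and 7253 in wild-type and 183 and 197 in H3.1K36M libraries (log2 -5.24 ± 0.05, adjusted p = 1.47e-19) and Gas1 at 48708 and 51595 and 4223 and 4532 (log2 -3.52 ± 0.04). The receptor Ptch1 and the effector Gli1, both induced by the pathway, fell by less, from 1564 and 1555 to 642 and 636 (log2 -1.29) and from 579.8 and 560.0 to 269 and 282 (log2 -1.05). All 11 were also lower in H3.1K36M than in H3.3K36M cells (31.5% of all genes were), where Boc stood at 1006 and 945 (log2 difference -2.35 ± 0.05) and Gas1 at 19466 and 18079.9 (log2 difference -2.10 ± 0.04). Notch genes fell for 9 of 13 and rose for 3 (median -0.72), and 1 reached the limit in each line alone. The receptor Notch1 fell from 8382 and 8569 to 428 and 438 (log2 -4.29 ± 0.05), its ligand Jag1 from 6524 and 6241 to 1807 and 1809.6 (log2 -1.82), and the target genes Hey1 and Hey2 from 518 and 462 to 20.9 and 9.58 and from 397 and 409 to 1.40 and 3.83.

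Wnt receptors and antagonists fell for 16 of 24 and rose for 7 (median -1.23), against 39.4% lower and 41.3% higher over all genes tested, and 3 reached the limit in H3.1K36M and 1 in wild-type libraries alone. Sfrp2, a secreted Wnt antagonist, stood at 6114 and 6072 in wild-type and 1.40 and 1.92 in H3.1K36M libraries (log2 -11.17 ± 0.22, adjusted p = 1.86e-16). Frzb, another antagonist of this type, fell from 2045 and 2068 to 30.7 and 34.5 (log2 -5.94). Among receptors Lrp5, a Wnt co-receptor, fell from 14619.5 and 14956 to 418 and 383 (log2 -5.20), Lgr4, a receptor for R-spondins, from 25602 and 25956 to 933 and 986 (log2 -4.75), and its relative Lgr5 rose from 3.27 and 0 to 198 and 223. Among the ligands and R-spondins 5 of 12 rose, 2 of which reached the limit in H3.1K36M libraries alone, and 3 fell; Wnt7a, a ligand of limb and epithelium, stood at 0 and 1.44 and 491 and 452 (adjusted p = 7.54e-12) and at 29.5 and 40.8 in H3.3K36M cells (log2 difference 3.73 ± 0.35). Rspo2, a secreted enhancer of Wnt signals, fell from 10875 and 10943 to 1909 and 1902 (log2 -2.52). Of 16 Wnt targets and effectors 9 rose and 7 fell, against 41.3% and 39.4% over all genes, with Axin2, a feedback target, going from 4.01 and 4.33 to 123 and 136, while the effectors Tcf7l2 and Tcf7 fell (log2 -2.99 and -3.87). Receptors, and targets and effectors, thus included genes of both directions. Both antagonists given here fell, but they were named for the size of their change and do not stand for all antagonists.

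Of 38 BMP and TGF-beta genes 20 fell and 12 rose (median -0.28), against 39.4% lower and 41.3% higher over all genes tested, and 4 reached the limit in wild-type and 1 in H3.1K36M libraries alone. The BMP antagonists parted: Nog, noggin, fell from 334 and 283 to 3.49 and 3.83 (log2 -6.05), whereas Grem1, gremlin, rose from 471 and 540.0 to 5451 and 5393 (log2 3.42). In the table with the parental cells Nog was at 248 and 209 in wild-type and 0, 0 and 0 in control siRNA libraries, so the parental cells were low as well. Grem1 was there at 350 and 399 and 590, 513 and 520. Among 17 FGF genes 8 rose and 8 fell (median -0.09, and 0.00 after quantile normalisation). The receptor Fgfr2 fell from 2121 and 2302 to 94.2 and 85.3 (log2 -4.61), and Etv4, a transcription factor induced by FGF signals, rose from 22.7 and 17.3 to 447 and 427 (log2 4.39). Among 15 IGF genes 8 rose and 6 fell (median 0.29). Igf1, the growth factor itself, stood at 5682 and 6094 and 23.7 and 20.1 (log2 -8.01 ± 0.12), Igfbp7, an IGF-binding protein, at 4281 and 4668 and 24029.6 and 25531 (log2 2.47), and Igfbp4 at 1081 and 1049.7 and 9611 and 9867 (log2 3.19). Among 11 retinoid genes, 2 of which reached the limit in H3.1K36M and 1 in wild-type libraries alone, 7 fell and 4 rose (median -0.12, and 0.38 with no limit on low values). Stra6, the retinol transporter, rose from 8.02 and 4.33 to 1082 and 1129 (log2 7.32) and Cyp26b1, which degrades retinoic acid, fell from 3177 and 3129 to 111 and 113 (log2 -4.80).

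Contractile genes of smooth muscle rose in H3.1K36M cells, with 13 of 17 higher, 10 of them by at least 2-fold, and 3 lower (median log2 1.85), against 41.3% higher and 11.7% at least 2-fold higher over all genes tested. Of the 17, 1 reached the limit on low values in H3.1K36M libraries alone. Acta2, smooth muscle alpha-actin, stood at 23632 and 22379.8 in wild-type and 68224 and 66604 in H3.1K36M libraries (log2 1.55 ± 0.04, adjusted p = 1.37e-15). Myl9, the regulatory light chain of smooth muscle myosin, stood at 482 and 484 and 5747 and 5769 (log2 3.57 ± 0.04, adjusted p = 2.54e-19). Synpo2, an actin-bundling protein of the Z-disc, rose from 9.35 and 17.3 to 554 and 533 (log2 5.30 ± 0.21). All 3 were high in both H3.1K36M libraries. Tagln, the actin-binding protein transgelin, rose from 553 and 451 to 2405 and 2461, the tropomyosin Tpm2 from 1188 and 1184 to 6114 and 5997 and Actg2, enteric gamma-actin, from 207 and 178 to 1619 and 1631. Flna, the actin cross-linker filamin A, rose from 57482 and 56685 to 151106 and 151975 (log2 1.41). Relative to H3.3K36M cells 10 of the 17 were higher and 4 lower, against 36.6% and 31.5% of all genes. Acta2 was at 17983 and 16842 in those cells, below wild-type (log2 -0.40 ± 0.04) and below H3.1K36M (log2 difference 1.95 ± 0.04, adjusted p = 7.02e-16). Actg2, at 1972 and 1827, was slightly above H3.1K36M (log2 difference -0.22). In the separately scaled table Acta2 was at 17563 and 16531 in wild-type and 33523, 35216 and 33892 in control siRNA libraries, and Myl9 at 358 and 357 and 1266, 1297 and 1178. For both genes the parental cells thus also stood above the wild-type line. Of 14 skeletal muscle genes 6 fell and 2 rose, with 2 that reached the limit in wild-type and 1 in H3.1K36M libraries alone, and the defining factors Myod1 and Myog did not reach the limit on low values.

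The CArG box is the motif of serum response factor, a known activator of contractile genes, and the Myl9 promoter is shown because it holds 1 and the gene rose by log2 3.57. The sequence is the 250 bases before the RefSeq start (GRCm38.p6, chr2:156775214-156775463, plus strand), with the motif in capitals, beginning 161 bases before the start.
Myl9: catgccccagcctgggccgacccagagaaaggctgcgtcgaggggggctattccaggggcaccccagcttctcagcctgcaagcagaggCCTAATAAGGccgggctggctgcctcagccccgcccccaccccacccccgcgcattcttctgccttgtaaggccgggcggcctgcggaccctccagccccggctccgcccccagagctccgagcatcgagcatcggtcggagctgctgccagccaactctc
Both strands were searched, in 9178 genes tested whose symbol had a promoter entry. A CArG box was found in 3 of the 13 promoters of the contractile list (Cnn2, Myl9 and Ldb3) and in 1.21% of all 9178. Promoters of genes at least 2-fold higher held it in 2.12% of cases, and those of genes at least 2-fold lower in 0.755%. Letters in this window do not show that a factor binds there.

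Genes of the amino acid and unfolded protein responses, many of them targets of the transcription factor ATF4, rose for 33 of 39 and fell for 4 (median log2 0.74), against 41.3% higher and 39.4% lower over all genes tested. Chac1, which degrades glutathione, stood at 677 and 676 in wild-type and 3019 and 3020.1 in H3.1K36M libraries (log2 2.16 ± 0.04, adjusted p = 3.41e-16). Slc7a11, the cystine importer, stood at 540.0 and 383 and 2203 and 2129.8 (log2 2.25 ± 0.18, adjusted p = 0.000243). Asns, asparagine synthetase, stood at 6162 and 5900.2 and 9506 and 9437 (log2 0.65). Each was higher in both H3.1K36M libraries, with Asns the least changed of these 3. Ddit3, a transcription factor of the stress response, rose from 2134 and 2033 to 5690.3 and 5722 (log2 1.45), Mthfd2, of mitochondrial folate metabolism, from 1691 and 1557 to 4554 and 4374 (log2 1.46), and Wars, tryptophanyl-tRNA synthetase, from 2474 and 2716 to 6985 and 6743 (log2 1.40). The same list was higher than in H3.3K36M cells for 30 of 39 genes and lower for 4 (36.6% and 31.5% of all genes), with Chac1 at 1325 and 1276 there (log2 difference 1.22 ± 0.04). In the separately scaled table Chac1 was at 503 and 499 in wild-type and 1181, 1107 and 1088 in control siRNA libraries, and Slc7a11 at 401 and 283 and 1071, 1197 and 1246, so the parental cells were above the wild-type line here too.

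The promoters of these 3 genes are shown because each holds the letters TGATGNAA, on either strand, which form the composite site that ATF4 is known to bind with C/EBP factors. Each is 250 bases before the RefSeq start (GRCm38.p6), read along the gene, with the match in capitals: Chac1 at chr2:119350992-119351241 (plus strand, beginning 193 bases before the start), Asns at chr6:7693210-7693459 (minus strand, 23 bases) and Slc7a11 at chr3:50443614-50443863 (minus strand, 66 and 47 bases).
Chac1: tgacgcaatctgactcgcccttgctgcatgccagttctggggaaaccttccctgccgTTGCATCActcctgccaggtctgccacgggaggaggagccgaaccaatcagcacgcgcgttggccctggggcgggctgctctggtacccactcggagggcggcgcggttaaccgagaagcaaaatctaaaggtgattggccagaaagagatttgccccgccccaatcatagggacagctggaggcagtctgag
Asns: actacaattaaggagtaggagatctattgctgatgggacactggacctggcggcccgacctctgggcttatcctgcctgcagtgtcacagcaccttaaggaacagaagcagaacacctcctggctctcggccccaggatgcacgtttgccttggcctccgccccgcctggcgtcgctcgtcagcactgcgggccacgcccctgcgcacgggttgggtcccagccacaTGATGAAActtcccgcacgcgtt
Slc7a11: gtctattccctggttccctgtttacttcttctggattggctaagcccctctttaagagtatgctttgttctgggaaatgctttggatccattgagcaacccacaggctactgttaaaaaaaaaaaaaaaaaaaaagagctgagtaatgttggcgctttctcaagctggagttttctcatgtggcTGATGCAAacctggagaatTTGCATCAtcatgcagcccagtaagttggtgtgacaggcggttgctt
The letters were found in 6 of 32 promoters of the list (18.8%; Chac1, Asns, Slc7a11, Aars, Gars and Herpud1), against 2.11% of all 9178. Promoters of genes at least 2-fold higher held them in 3.28% of cases, and those of genes at least 2-fold lower in 2.08%. The promoters of genes that changed by at least 2-fold held fewer CpG dinucleotides, with medians of 11 in those higher and 12 in those lower, against 17 in the promoters of the other genes.

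Targets of p53 rose for 18 of 24 and fell for 5 (median log2 0.56), against 41.3% higher and 39.4% lower over all genes tested. Eda2r, a TNF receptor family member, stood at 264 and 286 in wild-type and 1706 and 1761 in H3.1K36M libraries (log2 2.65 ± 0.07, adjusted p = 4.72e-15). Gadd45a, of the DNA damage response, rose from 537 and 605 to 2263 and 2405 (log2 2.03), and Ccng1, cyclin G1, from 4526 and 4378 to 13397 and 13610.2 (log2 1.60). Perp, a membrane protein of desmosomes and apoptosis, went against them, from 2546 and 2494 to 54.4 and 48.2 (log2 -5.59 ± 0.08). Trp53 itself stood at 2922 and 3044 and 4877 and 4751 (log2 0.69). Of the AP-1 genes, which encode Fos and Jun family factors, 6 of 8 rose and 1 fell. Fosl1 rose from 76.9 and 58.5 to 898 and 824 (log2 3.66) and Atf3, a stress-induced member, from 86.8 and 92.4 to 324 and 342 (log2 1.88), while Fos itself fell from 281 and 389.8 to 78.2 and 86.3 (log2 -2.0).

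Of 37 genes of DNA replication 28 rose and 1 fell, by small amounts (median log2 0.31), against 41.3% higher and 39.4% lower over all genes tested, such as the helicase subunit Mcm2 from 2726 and 2606 to 4878 and 4826 (log2 0.86). Of 36 genes of mitosis 27 fell and 3 rose (median -0.32). Ccnb2, a cyclin of mitotic entry, stood at 3536 and 3276 in wild-type and 1606 and 1598 in H3.1K36M libraries (log2 -1.09 ± 0.04, adjusted p = 1.03e-12). Nusap1, a spindle microtubule protein, stood at 3661 and 3437 and 1718 and 1734 (log2 -1.04 ± 0.04), and Cenpa, the centromeric histone, at 2252 and 2182 and 1326 and 1304 (log2 -0.75 ± 0.04). Of the same 36 genes 28 were higher and 3 lower in H3.3K36M than in wild-type cells, which are the same wild-type libraries. Tested directly, all 36 were lower in H3.1K36M than in H3.3K36M cells, with a median log2 difference of -0.60, and 28 of the 37 DNA replication genes were lower as well and 4 higher (median -0.26), against 31.5% lower and 36.6% higher over all genes. Top2a, the topoisomerase of mitotic chromosomes, stood at 19880.2 and 18868 in wild-type, 19227 and 19234 in H3.1K36M and 35244 and 35937 in H3.3K36M libraries (log2 difference -0.89 ± 0.03; adjusted p = 0.771 against wild-type). In bulk RNA, fewer dividing cells and less RNA per cell cannot be told apart.

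Cell cycle regulators of the RB pathway rose for 7 of 12 and fell for 3, against 41.3% higher and 39.4% lower over all genes tested. Ccnd2, a D-type cyclin, rose from 3512 and 3482 to 13440.5 and 12944 (log2 1.91) and Cdk6, a kinase that it activates, from 151 and 129 to 336 and 358 (log2 1.31). Cdkn2c, an inhibitor of that kinase, fell from 1042 and 1061 to 578 and 571 (log2 -0.87). The inhibitors of the INK4 locus, Cdkn2a and Cdkn2b, did not reach the limit on low values. Cdkn2a was at 0 and 1.44 in wild-type and 10.5 and 7.67 in H3.1K36M libraries, and Cdkn2b at 5.34 and 11.6 and 4.88 and 5.75, with overlapping groups for Cdkn2b. In the separately scaled table, which repeats the wild-type libraries, Cdkn2a was at 0 and 1.07 in wild-type and 178, 186 and 202 in control siRNA libraries, and Cdkn2b at 3.97 and 8.53 and 229, 253 and 249. Both inhibitors were thus near 0 in wild-type and H3.1K36M cells and present in the parental cells. Their neighbour Mtap, of methionine salvage, stood at 5502 and 5429 in wild-type and 14998 and 14906 in H3.1K36M libraries (log2 1.45 ± 0.03, adjusted p = 6.41e-16), and at 4089 and 4010.1 in wild-type and 8996, 9493 and 9437 in control siRNA libraries on the other scale.

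**Figure D4:**
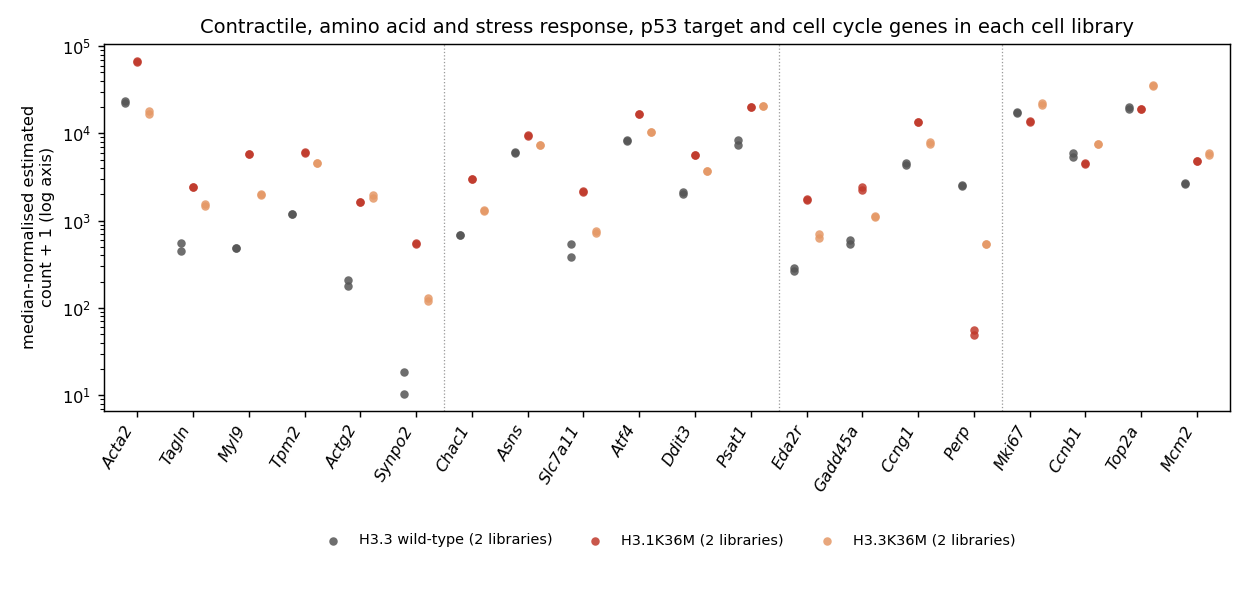
Levels (median-normalised estimated count + 1, log axis) of 6 contractile, 6 amino acid and stress response, 4 p53 target and 4 cell cycle genes in each of the 6 cell libraries, 1 point per library, with colours for the 3 lines. Both H3.1K36M libraries stand above both wild-type libraries for the first 15 genes and for Mcm2, below them for Perp, Mki67 and Ccnb1, and among them for Top2a.

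Genes of protein and lipid synthesis rose by small amounts. Of 76 ribosomal protein genes 73 rose and 1 fell (median log2 0.55; 41.3% of all genes rose and 39.4% fell), and their share of all values was 4.71% and 4.64% in wild-type libraries, 6.87% and 6.80% in H3.1K36M libraries and 6.42% and 6.58% in H3.3K36M libraries. Rpl12, of the ribosomal stalk, rose from 25084 and 24444 to 49772 and 47283 (log2 0.97). Rpl34 (log2 -3.88) and Rps27, at 0 and 0.0144 and 199 and 547, have many near-identical copies in the genome and are uncertain. Rps27 was also uneven among the 3 control siRNA libraries, at 433, 358 and 0.0173. Of 24 cholesterol synthesis genes 20 rose and 1 fell (median 0.38). Sqle, squalene epoxidase, rose from 9283 and 9937 to 16533 and 16165 (log2 0.77 ± 0.03) and stood at 9669.5 and 9824 in H3.3K36M libraries (log2 difference 0.75 ± 0.03, adjusted p = 4.31e-11). Against H3.3K36M cells 18 of the 24 were higher and 1 lower (36.6% and 31.5% of all genes). Among 33 genes of glycolysis and hypoxia 15 rose and 11 fell (median 0.03, and -0.01 after quantile normalisation). The kinases Hk2 and Pfkp, which commit glucose to glycolysis, rose from 494 and 526 to 1960.3 and 1829.8 (log2 1.89) and from 3667 and 3547 to 13211 and 13097 (log2 1.87), while Pdk1, which keeps pyruvate from the mitochondrion, fell from 2252 and 2221 to 618 and 646 (log2 -1.82).

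Immune genes were mixed, and each count below stands against 41.3% higher and 39.4% lower over all genes tested. Of 22 cytokines and chemokines 11 fell, 2 of which reached the limit in wild-type libraries alone, and 9 rose (median -0.93, and 0.38 with no limit on low values). Il33, a nuclear cytokine of stromal cells, rose from 12 and 20.2 to 876 and 853 (log2 5.70), Lif, of the interleukin 6 family, from 16 and 21.8 to 440.3 and 453 (log2 4.51), and Kitl, the ligand of Kit, fell from 9489 and 9773 to 1239.9 and 1371 (log2 -2.88). Antigen presentation genes rose for 11 of 18 and fell for 2; H2-K1, a class I molecule, stood at 792 and 860.3 in wild-type, 2313 and 2368 in H3.1K36M and 9121 and 8614 in H3.3K36M libraries (log2 difference -1.92 ± 0.05, adjusted p = 1.37e-14). Tested directly, 14 of these 18 were lower in H3.1K36M than in H3.3K36M cells and 2 higher (31.5% and 36.6% of all genes). Among 39 interferon-stimulated genes 15 rose and 14 fell (median -0.15), and 6 of the 39 reached the limit in H3.1K36M libraries alone. Ifit3, an antiviral gene above the limit in both lines, fell from 967 and 1037 to 131 and 122 (log2 -2.97). Among 14 complement genes, 3 of which reached the limit in H3.1K36M libraries alone, 7 rose and 4 fell (median 0.38, and -0.11 with a limit of 50). C3, the central component, fell from 546 and 569 to 24.4 and 27.8 (log2 -4.37) and Masp1, a protease of the lectin pathway, rose from 1655 and 1643 to 4559 and 4493 (log2 1.46).

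Beside these lists, 6 of 7 macrophage markers tested rose, 3 of which reached the limit in H3.1K36M libraries alone, and the part of such cells or of their RNA in the result was not tested. Over all genes tested 41.3% rose and 39.4% fell, and each marker count of this paragraph stands against these shares. The defining marker Ptprc was at 0 and 0 in wild-type and 1.40 and 2.88 in H3.1K36M libraries, and Csf1r at 9.35 and 2.89 and 9.07 and 15.3. C1qa was listed at 0 in wild-type libraries and at 22.3 and 43.1 in H3.1K36M libraries. It is one of 26 genes that were listed at 0 in the 4 libraries of H3.3 cells and at 1000 or more in each of the 6 tumors grown from H3.3K36M cells, a set chosen after its values were seen. Of these 26, 14 were above 0 in both H3.1K36M libraries and 4 were at 0 in both, at a median of 0.0388% of the tumor median. Among those called at least 2-fold higher here, 3 (C1qa, C1qb and C1qc) had a level at or under 0.1% of the tumor median. Endothelial markers fell for 4 of 6 and rose for 1, epithelial markers rose for 4 and fell for 3 of 8 (median 0.58, and -0.82 with a limit of 50), and neural and Schwann markers fell for 8 of 11 and rose for 3. The limit was reached by 2 epithelial markers in H3.1K36M libraries alone, and by 2 neural and Schwann markers in wild-type libraries alone. Among them Krt7, a keratin of simple epithelia, was listed at 0 in wild-type and at 255 and 296 in H3.1K36M libraries. Stmn2, a microtubule protein of growing neurons, stood at 49.4 and 43.3 and 2873 and 2895 (log2 5.93 ± 0.10, adjusted p = 1.44e-17) and at 173 and 198 in H3.3K36M libraries.

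Of the 8 H3K36 methyltransferase genes 3 rose, 3 fell and 2 did not pass, against 41.3% higher and 39.4% lower over all genes tested. Whsc1, which encodes NSD2, stood at 2789.7 and 2771 and 4815 and 4799 (log2 0.79 ± 0.03), Nsd1 at 5663 and 5719.6 and 6684 and 6459 (log2 0.21 ± 0.04), and Setd2, which adds the third methyl group, at 4839 and 4921 and 3767 and 3667 (log2 -0.39 ± 0.04). Smyd2, a SET-domain methyltransferase, rose (log2 0.45), while Ash1l and Setmar fell (log2 -0.23 and -1.17). Whsc1l1, which encodes NSD3, had log2 -0.07 (adjusted p = 0.0710) and Setd3 log2 -0.04 (adjusted p = 0.329). The RNA of the 3 main writers was thus within 2-fold of wild-type. The genes of the endogenous H3.3, H3f3a and H3f3b, fell from 22995 and 22831 to 11806 and 11999 (log2 -0.94 ± 0.03) and from 33748 and 32592 to 19676 and 19721 (log2 -0.75 ± 0.03). The wild-type line carries an H3.3 transgene whose reads, if counted under these genes, cannot be told apart from theirs. Among the chaperones the S-phase factors Chaf1a and Chaf1b rose (log2 0.57 and 0.53), as did Asf1a, Nasp and the H3.3 chaperone Hira (log2 0.50, 0.47 and 0.37), while Asf1b, Daxx and Atrx fell (log2 -0.29, -0.35 and -0.39). Cabin1 and Ubn1 had log2 0.06 and 0.03 (adjusted p = 0.155 and 0.471).

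Of 17 demethylases and readers of lysine 36 methylation 10 fell and 3 rose (median log2 -0.33). Over all genes tested 39.4% fell and 41.3% rose, and each count of this paragraph stands against these shares. The DNA methyltransferase Dnmt3a, which reads the mark, fell from 2548 and 2595 to 1034 and 960.5 (log2 -1.37 ± 0.05), and Kdm2b, a demethylase that also brings Polycomb to CpG islands, fell from 1673 and 1704 to 1008 and 1073 (log2 -0.70). Of 26 Polycomb genes 9 rose and 11 fell, with a median of 0.00 whose sign depends on the scaling. Pcgf5 rose (log2 1.82), as did Suz12, a core subunit of the lysine 27 methyltransferase (log2 0.84), and Ezh1, a catalytic subunit, fell (log2 -0.88). Of 8 DNA methylation genes 4 rose and 4 fell (median -0.27, and 0.21 with no limit on low values); Tet1, which oxidises methylcytosine, fell from 920.1 and 929 to 153 and 178 (log2 -2.48). Of 11 replication-dependent H3 genes 4 fell and 1 rose, but these are near-identical copies, mostly without a poly(A) tail, and are uncertain. Among 27 splicing factors 12 rose and 7 fell (median 0.07, and -0.04 after quantile normalisation); Celf2, an RNA-binding protein of muscle and brain, fell from 1909 and 1905 to 438 and 427 (log2 -2.14). Among 20 imprinted genes 11 fell and 7 rose, with Peg3, a zinc finger gene of growth control, from 10.7 and 13 to 337 and 328 (log2 4.70). Among 8 germline genes 3 rose and 4 fell, but 3 of the 8 reached the limit in H3.1K36M and 2 in wild-type libraries alone, which sets their direction; Dppa4, a pluripotency-associated chromatin protein, stood at 1.34 and 1.44 and 121 and 134.

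The 12 largest rises among genes that averaged at least 100 in H3.1K36M cells included Itih2, a heavy chain that binds hyaluronan, from 9.35 and 7.22 to 3887 and 3833 (log2 8.71 ± 0.10, adjusted p = 2.58e-19). Rnf128, a ubiquitin ligase, rose from 4.01 and 4.33 to 1553 and 1528, and Arhgap36, a regulator of protein kinase A and Hedgehog signals, from 1.34 and 2.89 to 1151 and 1137. Ankrd1, a target of the YAP coactivator, rose from 2.67 and 5.78 to 1226 and 1319. These 4 genes were near 0 in both wild-type libraries. In the separately scaled table Itih2 was at 6.95 and 5.33 in wild-type and 203, 194 and 185 in control siRNA libraries. Rnf128 was there at 2.98 and 3.20 and 173, 196 and 209. Arhgap36 was at 0.993 and 2.13 and 22.8, 35.1 and 20.8, and Ankrd1 at 1.99 and 4.27 and 21.2, 22.6 and 32.9. For all 4 genes the parental cells thus stood above the wild-type line. The prolactin family genes Prl2c2 and Prl2c3 resemble each other so closely that their counts may be mixed; Prl2c2 stood at 6.16 and 8.07 and 2419 and 2604. Slco4a1, Tmem37 and 3830417A13Rik, with Krt7, Wnt7a and Rps27 above, complete the set. Of these, Slco4a1, 3830417A13Rik and Wnt7a were at 0 in every control siRNA library. The small proline-rich genes Sprr2a1 and Sprr2a2 carry identical values (32 and 50.5 against 303 and 307) and cannot be told apart. Among the 12 largest falls, Gas7, a gene of growth arrest and neurite outgrowth, stood at 8598 and 8868 and 4.19 and 2.88 (log2 -10.93 ± 0.14), Bmx, a Tec family kinase, at 1459 and 1627 and 0 and 1.92, and Cldn19, a claudin of tight junctions, at 1137 and 1118 and 0 and 0.958. Penk, proenkephalin, was at 804 and 797 in wild-type libraries and listed at 0 in both H3.1K36M libraries, as was Wfdc12, at 1182 and 1222. Penk was at 598 and 589 in wild-type and 1120.0, 1195 and 1244 in control siRNA libraries on the other scale, so wild-type and parental cells both held its RNA. Gm5886 fell from 5253 and 5276 to 0.698 and 0, and the remaining falls were Cytl1, Eln, Sfrp2, Lect1, Tnmd and G0s2, given above.

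The direct test of H3.1K36M against H3.3K36M cells, whose comparisons with wild-type share the same wild-type libraries, called 8832 of 12955 genes (68.2%). Highest against H3.3K36M were Rps27, Prl4a1 and Gm14308, each listed at or near 0 in H3.3K36M and wild-type cells; Gm14308 had unequal H3.1K36M libraries, at 76.2 and 203. Arhgef5, a guanine nucleotide exchange factor, stood at 6.68 and 4.33 in wild-type, 591 and 568 in H3.1K36M and 15.6 and 18 in H3.3K36M libraries (log2 difference 5.03 ± 0.24, adjusted p = 4.31e-11). Pkp2, a desmosomal plakophilin, stood at 8.02 and 4.33, 1282 and 1321 and 94.8 and 117 (log2 difference 3.62 ± 0.21). Its relative Pkp1 had the reverse order, at 358 and 313, 2.79 and 0 and 56.1 and 45.6 (log2 difference -4.73 ± 0.58). The plakophilins thus moved apart in the same cells. Gda, guanine deaminase, was at 481 and 487 in wild-type and 542 and 568 in H3.3K36M libraries but at 25.1 and 23 in H3.1K36M libraries (log2 difference -4.47 ± 0.10). Tmem176b, a cation channel protein, was at 1264 and 1321 in H3.3K36M cells against 48.8 and 49.8 in H3.1K36M cells (log2 difference -4.68 ± 0.19). Chi3l1, a chitinase-like secreted glycoprotein, was at 219 and 293 in wild-type and 19.6 and 30.4 in H3.3K36M libraries and listed at 0 in both H3.1K36M libraries.

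**Figure D5:**
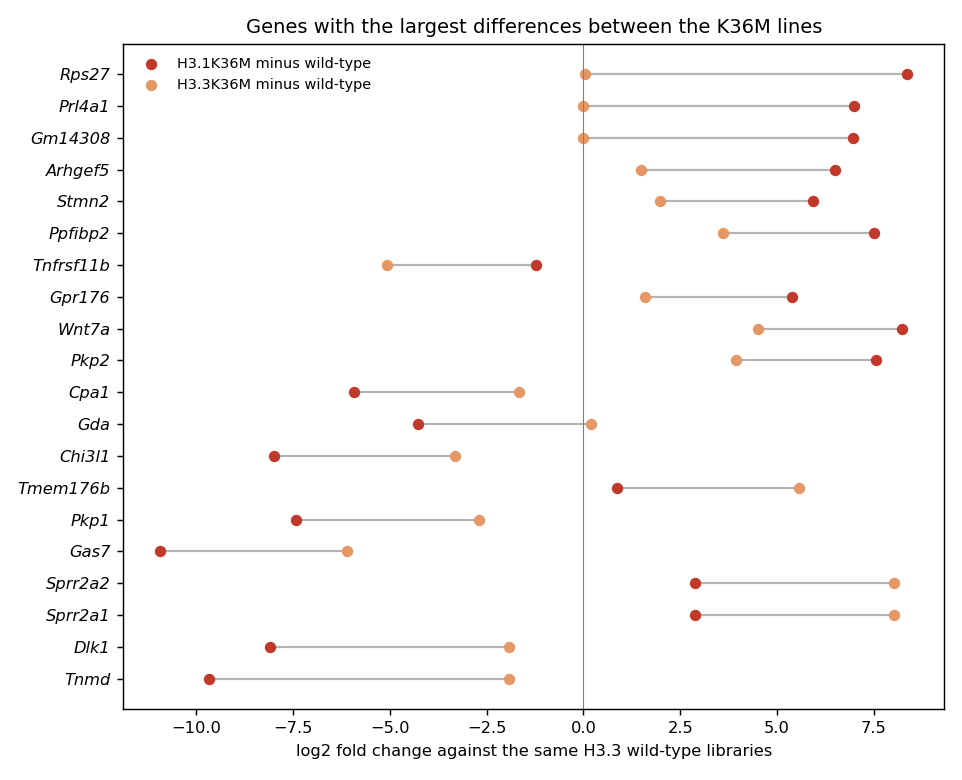
Log2 fold changes against the same H3.3 wild-type libraries (x axis) of H3.1K36M cells (red) and H3.3K36M cells (orange) for the 20 genes (y axis) with the largest differences between these lines, joined by a line for each gene. The lines differ most for Rps27 at the top and Tnmd at the bottom; for most genes both points lie on the same side of 0, and for Gda they do not.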

How the data were processed

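RNA-seq was made from the 18 libraries of the series, and the authors deposited their values in 3 tables, of which 2 were used. The submitters' processing notes name the aligner Bowtie 1.0.0, the estimator RSEM 1.2.12 and the genome build mm9. The deposited values are a signal, namely estimated counts divided by the authors by a factor for each library, called median normalisation in the deposited files. Tables were scaled separately, so the levels of control siRNA cells are only set beside the wild-type levels of their own table. Only part of the values stand for whole reads, so no count test was run.

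The 6 cultured libraries of the histone lines were fitted together with limma 3.58.1 in R 4.3.3 (statmod 1.5.0) on log2(value + 1), with trend and robust options and 3 residual degrees of freedom. Tests were two-sided with Benjamini-Hochberg adjustment over all 12955 genes tested, at a threshold of 0.05, and the ± after a log2 value is its standard error. Fold changes on this scale understate those of low genes. The fit was tested on simulated data with 200 changed genes. Replicates of a line differed by more than counting noise and were counted as separate libraries.

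Named genes were the writers of lysine 36 methylation, the H3.3 genes and H3 chaperones, and Cdkn2a, Cdkn2b, Mtap, Sox9, Col2a1, Acan, Runx2, Pparg, Cebpa and Trp53. To these were added the 12 largest changes in each direction that passed (higher mean at least 100, no overlap between the libraries of the 2 lines). Up to 6 members of each list that passed were added as well (higher mean at least 50). The last were the 10 largest differences from H3.3K36M cells in each direction, and the 6 changed genes of highest value in each direction. Members of a list given as exceptions, or for their level at or near 0, were named after their values were seen. The comparison, the 54 gene lists and this rule were chosen with earlier results of these data known. Lists are described by counts and medians, with no test of a list. Results of some single genes are not reported here. Promoter sequences are from RefSeq (GRCm38.p6), matched by symbol, and no coordinates of the mm9 build are mixed with them. Alternatives were the pseudocount, the limit on low values, the scaling, the libraries in the fit, a replicate block, the variance options, a test against a 2-fold bound and leaving out each library.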

Additional observations from a re-analysis of the deposited data

Results flagged for a closer look

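For 11 of the genes named, H3.1K36M and H3.3K36M cells each passed the test in opposite directions from the wild-type libraries, which both comparisons share, and the direct difference between the mutant lines passed as well. In 7 of these the direct difference was at least 2-fold. Acta2, smooth muscle alpha-actin, was the gene of the 7 with a positive difference (log2 1.95). The other 6 were lower in H3.1K36M and higher in H3.3K36M cells than in wild-type cells. Rspo3, a secreted enhancer of Wnt signals, had a log2 difference of -3.57, with 122 and 111 in wild-type, 34.9 and 38.3 in H3.1K36M and 436 and 452 in H3.3K36M libraries. Jag2, a Notch ligand, had -3.50, with 128 and 117, 31.4 and 38.3 and 443 and 366 in the same order. Serping1, the inhibitor of complement C1, had -3.31, with 100.2 and 123, 39.1 and 48.9 and 430.0 and 454. Phf19, a Polycomb-associated reader of lysine 36 methylation, had -1.57, with 326 and 331, 172 and 174 and 522 and 508. Flt1, a receptor for VEGF, had -1.25, and Cdkn2c, an inhibitor of the cyclin D kinases, had -1.20. In each of the 7 genes the H3.1K36M libraries did not overlap with those of either other line. On the scale of the parental cells, Rspo3 was at 90.3 and 82.1 in wild-type and 1003, 988 and 1065 in control siRNA libraries. The parental cells thus stood well above the wild-type line for Rspo3. Phf19 went the other way, at 242 and 244 in wild-type and 100, 96.6 and 93.4 in control siRNA libraries.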

How the results depend on the processing

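Of 12955 genes tested 10461 passed; with all 12 libraries of the table in the fit, tumors included, 6092 did (3185 higher, 2907 lower), and without each library in turn 9628 to 10089 did. Genes changed at least 2-fold numbered 3112, with 3086 to 3128 on leaving out a library and 2309 to 4058 over all alternatives. Of 53 lists 25 had a median above 0, and 23 to 25 on leaving out a library. Of the 323 named genes that passed, 37 lost the call under at least 1 alternative, 33 of them in the 12-library fit alone; the others included Tnnc1, Sycp1 and Lars2.

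Between the mutant lines 274 named genes differed, 159 with all 12 libraries and 259 to 281 on leaving out a library. The sign of this difference turned for Col15a1 (0.066), Ccnd1 (-0.026) and Ptbp1 (-0.10) after quantile normalisation and for Ptbp1 (-0.076) with equal library totals. Causes were not tested.

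Replicate numbers did not pair the samples (correlations of deviations between lines, -0.0015 to 0.0265). With the replicate number as a block 10407 genes passed, 3114 of them changed at least 2-fold, 25 lists had a median above 0 and 272 named genes differed between the mutant lines.

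At 2 libraries a line, values of a few reads are imprecise. The 89 tested genes listed at 0 in both wild-type libraries and the 29 listed at 0 in both H3.1K36M libraries have no interpretable fold change. With a pseudocount of 10 the list median went from 4.31 to 1.53 for HoxB, from -5.04 to -2.93 for HoxC and from 0.58 to 0.37 for epithelial markers, and for germline genes from 0.03 to -0.01. The share of whole counts sets H3.1K36M libraries apart from those of both other lines, each line is a single line, and the wild-type line differs from control siRNA cells in genes named above.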
